A study of Mus musculus with 4 samples.

Results

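The Hox genes measured in cultures from newborn mouse skull are described here. A gene was a member when an array row carried its symbol alone, made of Hox, a cluster letter from a to d and a number; where several rows did so, the row with the highest mean over the 4 arrays stood for the gene. The members were 36 of the 22180 genes named in this way, held in 37 of 41345 rows, since Hoxb5 had 2 rows. Hoxa11 and Hoxd4 were present only in rows shared with other symbols and were not members. The choice used names and brightness and no difference between the groups.

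Hox genes encode homeodomain transcription factors and lie in 4 clusters, where members at the same place in each cluster form 13 paralogue groups. Along the body axis low-numbered groups are switched on from the hindbrain backwards, and high-numbered groups in the lower trunk, tail, limbs and genitalia. The neural crest that builds the face and the front of the skull roof is known as a Hox-free tissue, where the skeleton is patterned by other homeobox genes of the Msx, Dlx and Alx families. Outside their domains Hox clusters are kept silent by Polycomb complexes, and they are opened by trithorax proteins and by retinoic acid. Runx3, the gene targeted here, encodes a runt-domain transcription factor of bone, cartilage and blood cells.

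Total RNA was measured on 4 arrays, 2 from Runx3f/f/Col1a1-cre cultures (called mutant below) and 2 from wild-type cultures (WT). All came from neonatal mouse calvaria, the skull roof, and were kept for 21 days in medium with ascorbate and glycerol phosphate, which lets osteoblasts lay down mineral. In the mutant both Runx3 alleles carry loxP sites and Cre is driven by the type I collagen promoter Col1a1, so that other cells of the culture would keep the gene. The sources used here do not give whether WT cultures carried loxP sites or Cre, how many animals were pooled, or the strain and sex. The labels number the arrays of each group as biological replicates 1 and 2 without saying what a number shares, so p-values measure only the spread between these samples.

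Values are array levels taken as log2, as the labels' naming of the RMA method implies, and the log base is not stated. A row of each gene is read by its own probes, so a level is set here against background rows and is not an abundance. In bulk RNA, fewer cells of a type and less RNA per cell cannot be told apart. The row of Runx3 lay at 7.94 and 8.06 on the mutant-labelled arrays and at 7.45 and 7.87 on the WT arrays, and so was not lower in the mutant-labelled pair; the deleted part is not given, and the row checks the label only if its probes lie there. The tissue tag of the samples reads Myoblast while their cell type is given as osteoblast. The osteoblast genes Col1a1 and Alpl lay at 13.52 and 11.40 as means over the 4 arrays. The myogenic regulators Myod1, Myf5 and Myog lay at 5.94, 6.13 and 6.34, within or just above the range of the Hox genes. Of all 12 skeletal myoblast markers 10 (83.3%) were above the background floor defined below, as were 79.4% of all named genes. The brightest of the 12 were the muscle genes Des and Acta1 at 7.98 and 7.55.

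Promoter sequence was available for 20 of the 36 members, as 22 windows of 300 bases from RefSeq (GRCm38.p6), each with 250 bases before the start and 50 after it. Hox promoters are rich in CpG, the dinucleotide of unmethylated promoter islands: the median window held 17 (range 4 to 45) against 7 over all 32851 mouse windows and 1 over 948 olfactory receptor windows. Median GC content was 58.7% in Hox windows, 52.7% over all windows and 35.0% in olfactory receptor windows. The neighbours Hoxa6 and Hoxa5 on chromosome 6 are shown because they had the brightest and the dimmest row of the Hoxa cluster; the 250 bases before each start are printed along the transcribed (minus) strand, with CG in capitals, and cover chr6:52208673-52208922 for Hoxa6 and chr6:52204588-52204837 for Hoxa5.
Hoxa6: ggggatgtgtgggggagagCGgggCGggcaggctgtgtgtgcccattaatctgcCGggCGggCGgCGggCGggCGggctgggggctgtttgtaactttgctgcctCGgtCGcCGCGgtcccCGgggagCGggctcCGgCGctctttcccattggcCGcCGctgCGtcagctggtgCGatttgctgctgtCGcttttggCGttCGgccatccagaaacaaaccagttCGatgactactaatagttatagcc
Hoxa5: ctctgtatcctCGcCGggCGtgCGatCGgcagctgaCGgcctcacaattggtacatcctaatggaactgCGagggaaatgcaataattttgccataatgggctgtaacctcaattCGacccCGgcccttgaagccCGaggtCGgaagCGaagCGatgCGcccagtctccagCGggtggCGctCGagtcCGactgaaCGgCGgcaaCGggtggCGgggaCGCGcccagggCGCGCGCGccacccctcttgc
These windows held 24 CpG for Hoxa6 and 28 for Hoxa5, so the brighter row did not have the richer promoter of the pair.

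Runt-domain proteins bind the letters TGTGGT and TGCGGT, which were searched on both strands. TGTGGT was present in 1 of 22 Hox windows (4.55%) against 16.8% of all windows, and TGCGGT in 2 (9.09%) against 6.45%. The 3 matches all fell in the Hoxd cluster and are printed with 12 bases on each side and the match in capitals. Every Hoxd member had a window, while the Hoxb cluster had windows only for Hoxb1, Hoxb4 and Hoxb8, and the Hoxc cluster only for Hoxc4. The clusters were thus searched unequally, and the matches cannot be called particular to Hoxd. Counted from the start, with bases before it negative, the Hoxd10 match begins at -10 and the Hoxd3 match at -152. The Hoxd1 match lies on the opposite strand, reads ACCGCA on the printed strand and begins at -79.
Hoxd10: gcttggttgtcaTGTGGTcggcagaggcat
Hoxd3: ttatgacctattTGCGGTcgtcattggctg
Hoxd1: caggcgcgtggaACCGCActccagtcggga
These are letter matches only. The windows of the other Hox genes held neither motif, which says nothing of binding elsewhere.

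MicroRNAs are encoded inside the Hox clusters, and Mir10b, Mir196a-1 and Mir196a-2 were among those with a row of their own here. The mature forms from RefSeq are printed with the seed, bases 2 to 8, in capitals.
mmu-miR-10b-5p: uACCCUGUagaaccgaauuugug
mmu-miR-10a-5p: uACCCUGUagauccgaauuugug
mmu-miR-196a-5p: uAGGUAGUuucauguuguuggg
mmu-miR-196b-5p: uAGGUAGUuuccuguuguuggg
The miR-10 forms share the seed ACCCUGU and the miR-196 forms the seed AGGUAGU; Mir196a-1 and Mir196a-2 give the same mature 5p form. Mir10b, beside Hoxd4, lay at a mean of 3.29, Mir196a-1 at 4.76 and Mir196a-2 at 4.17, all under 4.78, the 90th percentile of the olfactory receptor rows used as background. Mir196a-1 was over 4.78 on both replicate 2 arrays, at 4.87. It lay under the background limits set on those arrays alone, 5.16 (mutant) and 5.11 (WT). On the replicate 1 arrays it was over such limits, at 4.66 in mutant and 4.63 in WT against 4.55 and 4.56. Mir615, given further below, had a mean of 5.02. Array rows of a microRNA gene read its precursor transcript, so these levels do not measure the mature form.

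The Hox genes were dim. Their mean levels ran from 3.97 (Hoxc5) to 6.18 (Hoxc13) with a median of 4.93, and 0 of 36 reached 6.63, the median of all named genes. Of the 144 array values, 1 lay above that median, Hoxa6 on the WT array of replicate 2. That value, 6.74, lay under 6.86, the median of all named genes on the same array. Olfactory receptor genes, which bone cells are not known to use, served as background: the means of their 1108 rows had a median of 3.63 and a 90th percentile of 4.78, called the floor below. All 36 Hox means lay above the background median and 25 above the floor, and the median Hox gene was brighter than 91.8% of background rows. The background also reached further than the Hox genes did, since 13 olfactory rows (1.17%) were brighter than Hoxc13.

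A gene was counted above the floor when at least 2 of the 4 arrays lay over it. This held for 28 of 36 Hox genes (77.8%), for 79.4% of all named genes and for 16.2% of olfactory receptor genes. With all 4 arrays required, 14 Hox genes (38.9%) remained, against 69.0% of all named genes and 6.24% of olfactory receptor genes. Of the 13 Hox genes with exactly 2 arrays above the floor, 12 passed on the replicate 2 arrays alone, and these arrays were brighter as a whole, with medians over all rows of 6.08 and 6.05 against 5.50 and 5.45 in replicate 1. With a floor set on each array from its own olfactory rows, 24 Hox genes passed on at least 2 arrays, 17 on all 4 and 9 on none. These floors were 4.55 (mutant) and 4.56 (WT) in replicate 1, and 5.16 and 5.11 in replicate 2. Passing the single floor on replicate 2 arrays only thus does not show a level above the background of those arrays. Failing it in replicate 1 does not show a level within the background there.

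**Figure D1:**
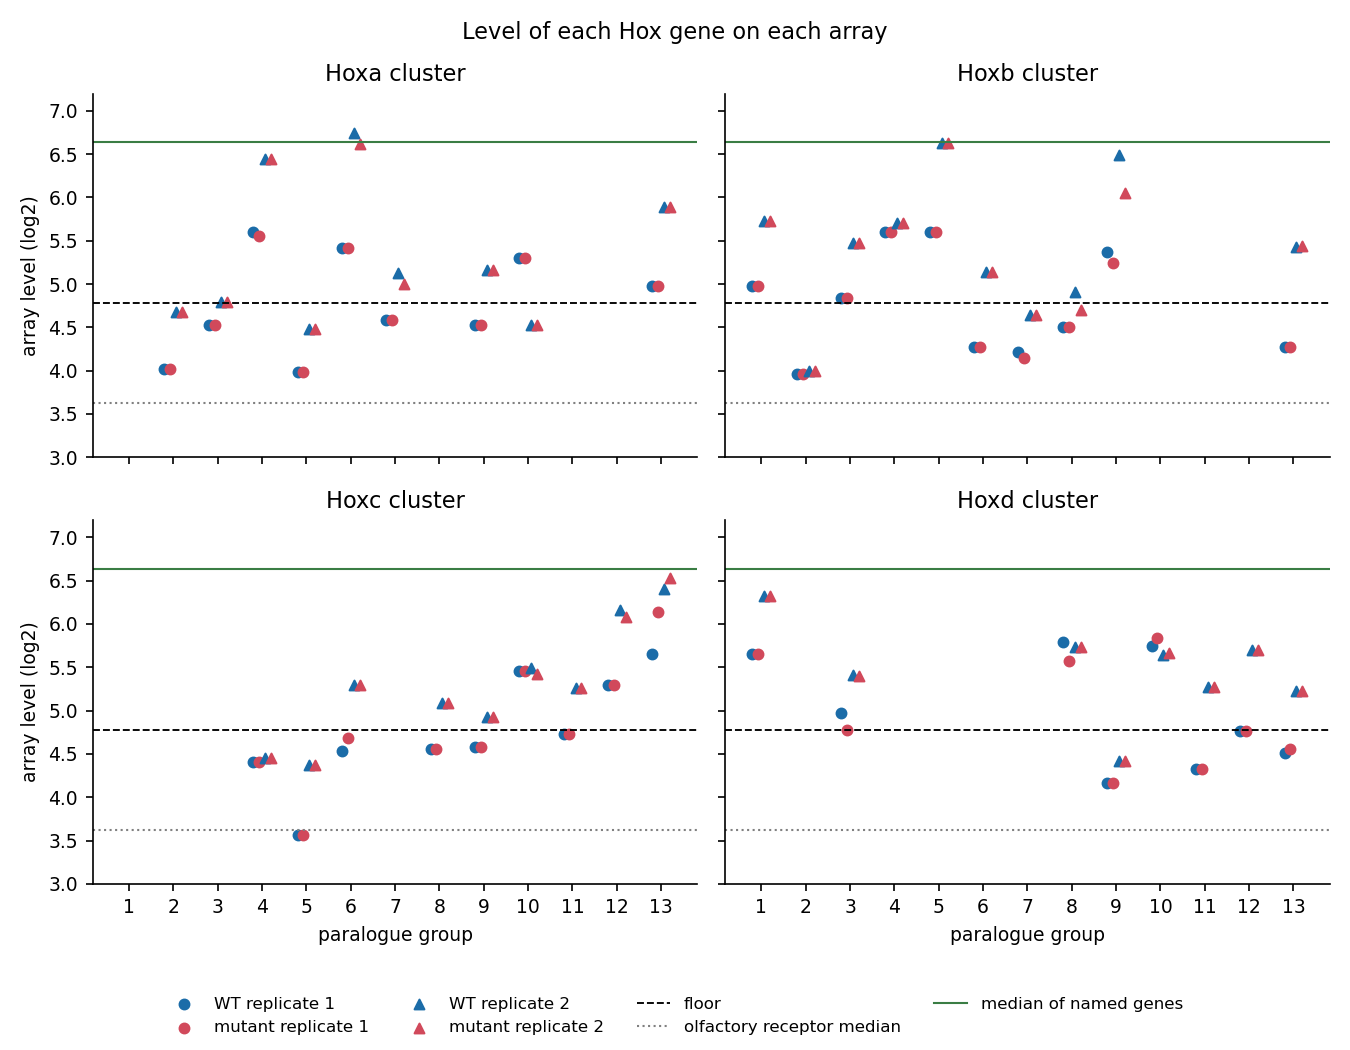
Array level (log2) of each Hox gene on each array, by paralogue group (x axis) and cluster (panels); circles are replicate 1, triangles replicate 2, red mutant and blue WT, and the lines mark the floor (4.78, dashed), the olfactory receptor median (3.63, dotted) and the median of all named genes (6.63, green). Triangles sit above circles for 32 of 36 genes, mutant and WT symbols mostly coincide, and 1 value lies above the green line. The green line is taken from means over the arrays and not from single arrays.

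In the Hoxa cluster the 9 members had a median of 4.85; 7 were above the floor and 3 on all 4 arrays. Hoxa6, a thoracic-level gene and the brightest row, was read at 5.42 and 6.62 on the mutant arrays of replicates 1 and 2 and at 5.42 and 6.74 on the WT arrays. Hoxa4, a cervical-level gene, was read at 5.55 and 6.45 in mutant and 5.60 and 6.45 in WT. Hoxa13, which patterns the hand, foot and genital tubercle, was read at 4.97 and 5.89 in both groups. In these genes replicate 2 was high and replicate 1 low, while mutant and WT of a replicate were equal or nearly so. Hoxa5, which acts in lung and cervical spine, was the dimmest at 3.99 and 4.49 in both groups, under the floor on every array. Hoxa2, the gene that specifies the skeleton of the second pharyngeal arch, was also under the floor throughout, at 4.01 and 4.68 in both groups. Hoxa10, a lumbar and limb gene, ran against the others: it was read at 5.30 in replicate 1 and 4.53 in replicate 2 of both groups, and passed the floor on replicate 1 arrays only. The other members, Hoxa3, Hoxa7 and Hoxa9, had means from 4.66 to 4.85 and passed on replicate 2 arrays only. Against the floor of each array, Hoxa3 passed on none and Hoxa7 on all but the mutant array of replicate 2. Hoxa9 passed on the WT array of replicate 2 and lay at the floor of the mutant array, 5.16.

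In the Hoxb cluster the 10 members had a median of 5.01, with 7 above the floor and 5 on all 4 arrays. Hoxb5 was the brightest, at 5.60 and 6.63 in both groups, and its other row gave 5.36 and 5.83 in both groups, above the floor on each array in either row. Hoxb9, a gene of the thoracic ribs, was read at 5.24 and 6.05 in mutant and at 5.37 and 6.48 in WT. The values overlapped between groups, with replicate 2 above replicate 1 in each. Hoxb4, known from blood stem cells, differed little between replicates, at 5.60 and 5.70 in both groups. Hoxb1, which marks a hindbrain segment, was read at 4.97 and 5.73 and Hoxb3, of the hindbrain and pharyngeal arches, at 4.84 and 5.48, each alike in mutant and WT. Hoxb2, another hindbrain gene, was the dimmest at 3.96 and 4.00 in both groups, under the floor on all arrays. Hoxb7 was also under it throughout, and Hoxb8 passed on 1 array, the WT array of replicate 2 at 4.91. That value lay under 5.11, the floor set on that array alone. Hoxb6 and Hoxb13 passed on replicate 2 arrays only. Against the floor of each array, Hoxb13 still did, while Hoxb6 passed on the WT array of replicate 2 only.

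In the Hoxc cluster the 9 members had a median of 4.95; 7 were above the floor and 3 on all 4 arrays, namely Hoxc10, Hoxc12 and Hoxc13. Hoxc13, the regulator of hair and nail keratins, had the highest mean of any Hox gene, at 6.14 and 6.53 on the mutant arrays and 5.65 and 6.40 on the WT arrays. Hoxc12 was read at 5.30 and 6.08 in mutant and 5.30 and 6.16 in WT. Hoxc10, of the lumbar spinal cord and hindlimb, was read at 5.45 and 5.42 in mutant and 5.45 and 5.50 in WT, with little difference between replicates. Its 5 members of paralogue groups 9 to 13 had a median of 5.46, and all 5 were above the floor. Hoxc4 and Hoxc5 were under the floor on all arrays, and Hoxc5 was the dimmest member of all, at 3.56 and 4.37 in both groups. Hoxc6, Hoxc8, Hoxc9 and Hoxc11 had means from 4.75 to 4.99 and passed on replicate 2 arrays only. Against the floor of each array, Hoxc9 passed on replicate 1 arrays only and Hoxc8 on the mutant array of replicate 1 only. Hoxc11 then passed on all 4 arrays and Hoxc6 on all but the WT array of replicate 1.

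In the Hoxd cluster the 8 members had a median of 5.19; 7 were above the floor and 3 on all 4 arrays. Hoxd1 was the brightest by its mean, at 5.65 and 6.32 in both groups. Hoxd8, of the trunk, was read at 5.57 and 5.73 in mutant and 5.79 and 5.73 in WT. Hoxd10, a limb and lumbar gene, was read at 5.84 and 5.67 in mutant and 5.75 and 5.65 in WT, and with Hoxa10 it was the exception that was lower in replicate 2 in both groups. Hoxd9 was the dimmest, at 4.17 and 4.42 in both groups, under the floor throughout. Hoxd3, which shapes the first neck vertebra, passed on 3 arrays, at 4.78 and 5.40 in mutant and 4.97 and 5.41 in WT. The digit genes Hoxd11, Hoxd12 and Hoxd13 had means of 4.80, 5.23 and 4.88 and passed on replicate 2 arrays only. Against the floor of each array, Hoxd11 still did. Hoxd12 then passed on all 4 arrays and Hoxd13 on all but the WT array of replicate 1.

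By position the 10 members of paralogue groups 1 to 4 had a median of 5.15 with 7 above the floor, the 11 of groups 5 to 8 a median of 4.82 with 7, and the 15 of groups 9 to 13 a median of 4.99 with 14. With all 4 arrays required, 5 of the 10, 3 of the 11 and 6 of the 15 remained. Medians of single groups ran from 4.16 (group 2, Hoxa2 and Hoxb2, both under the floor) to 5.67 (group 1, Hoxb1 and Hoxd1, both above it on all arrays), with 4.24 in group 5 and 5.47 in group 12. No cluster and no stretch of paralogue groups lay apart: bright and dim rows stood side by side, as Hoxa5 and Hoxa6 or Hoxd8 and Hoxd9 show. Paralogues did not share a level either, since group 5 held both Hoxc5 (3.97) and Hoxb5 (6.12). With 1 row and 1 probe group per gene, a difference between rows and a difference between genes cannot be told apart.

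The Hox rows differed more between replicate numbers than between genotypes. Replicate 2 was above replicate 1 in both groups for 32 of 36 members, below in both for Hoxa10 and Hoxd10, and of opposite sign in the 2 groups for Hoxc10 and Hoxd8. In WT the median offset was 0.63, against 0.30 over all named genes, 0.59 over the 7344 named genes in the Hox range of levels and 0.38 over olfactory receptor genes. It was largest for Hoxa6, at 1.32. For 34 of 36 members the WT offset was larger than the larger of the 2 differences between mutant and WT; Hoxd8 and Hoxc10 were the exceptions. What the number marks (a litter, a day, a processing run) is not stated.

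**Figure D2:**
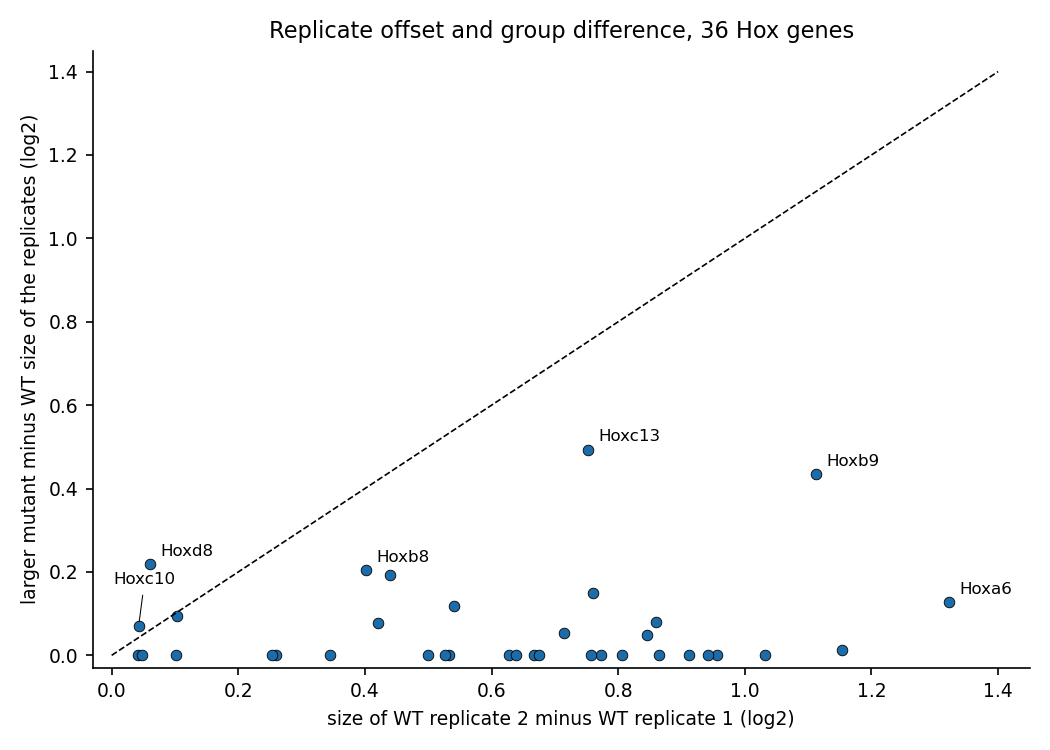
Size of the difference between WT replicates (x axis, log2) against the larger mutant minus WT difference in size of the 2 replicates (y axis, log2); each point is 1 of 36 Hox genes and the dashed line marks equality. All points but Hoxd8 and Hoxc10 lie under the line, and 21 lie at 0 on the y axis.

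The arrays labelled mutant were compared with WT to see whether Hox levels differed between the genotypes. Mutant and WT held exactly the same value, with no tolerance, in 53 of the 72 member-by-replicate pairs. By gene, 21 of 36 members (58.3%) were equal in both replicates, 11 in one of them and 4 in neither: Hoxb9, Hoxc13, Hoxd3 and Hoxd10. Over all named genes 29.5% were equal in both replicates, and among named genes in the Hox range of levels 47.4% were. Equal values were commoner in dim rows as a whole: 50.9% of named genes with a mean between 4 and 5 were equal in both replicates, as were 12 of 18 Hox genes there, against 10.2% of genes between 10 and 15. Between 5 and 6 the shares were 44.9% of named genes and 6 of 12 Hox genes.

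Values also recurred between different rows of an array. Of the 144 Hox values, 103 (71.5%) were held by another row of the same array too, against 66.1% of values of named genes in the Hox range and 44.6% over all named genes. Hoxa13 and Hoxb1, on different chromosomes, held the same 4.97 on both replicate 1 arrays, and Hoxb4 and Hoxd12 the same 5.70 on both replicate 2 arrays. The sources used here do not say how the deposited values came to be shared. An equal pair therefore shows that the deposited values do not separate mutant from WT and does not measure an equal amount of RNA.

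Where mutant and WT did differ, the differences were small. Of the 19 values that were not 0, 10 reached 0.1 and 4 reached 0.2: Hoxc13 was 0.49 higher in mutant in replicate 1, and mutant minus WT was -0.43 for Hoxb9 in replicate 2, -0.22 for Hoxd8 in replicate 1 and -0.20 for Hoxb8 in replicate 2. No member was 1.5-fold apart in either replicate. In replicate 1, 4 members were higher and 5 lower in mutant; in replicate 2, 3 were higher and 7 lower. Hoxc13 and Hoxd10 were higher in both, Hoxb9 and Hoxd3 lower in both.

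The 28 Hox genes above the floor were tested with all 17600 genes above it (limma, two-sided, Benjamini-Hochberg adjustment over all of them). None passed an adjusted p of 0.05, where 0% of tested genes did, and all 28 adjusted p-values were 1. At an unadjusted p under 0.05 there were 0 Hox genes against 4.03% of all tested genes, and the smallest Hox value was 0.412 by limma, for Hoxc13. A difference of 1.5-fold or more with the same sign in each replicate was found in 2.66% of tested genes (1.49% higher and 1.17% lower in mutant) and in 0 of 28 Hox genes. Mutant and WT values did not overlap in 17.1% of tested genes and in 0 Hox genes. For a group of 28 the counts of 0 are near the first 3 backgrounds. The 1.5-fold count and the last one were largely set by equal values. A gene with an equal pair in a replicate cannot be 1.5-fold apart in each, and its groups cannot lie apart. Of the 28 tested Hox genes 24 were equal in at least 1 replicate, against 10562 of all 17600 tested genes. That leaves 4 Hox genes that could pass either count. Over all tested genes the smallest adjusted p by limma was 0.300.

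The intervals of this fit, which has no term for the replicate number, were wide for most Hox genes. Hoxc13 had means of 6.34 ± 0.28 in mutant and 6.02 ± 0.53 in WT (SD, n = 2 each), a difference of 0.31 with a standard error of 0.34 and a 95% interval of -0.67 to 1.30. Hoxb9 had means of 5.65 ± 0.57 and 5.93 ± 0.79 (SD, n = 2 each), a difference of -0.28 (SE 0.53) and an interval of -1.82 to 1.26. The interval was narrower where replicates were close: -0.37 to 0.37 for Hoxb4 and -0.49 to 0.27 for Hoxd8, while for Hoxa6 it ran from -2.04 to 1.91. The median standard error was 0.38 over the tested Hox genes and 0.19 over all tested genes. The p-values thus do not show equal levels in the groups.

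**Figure D3:**
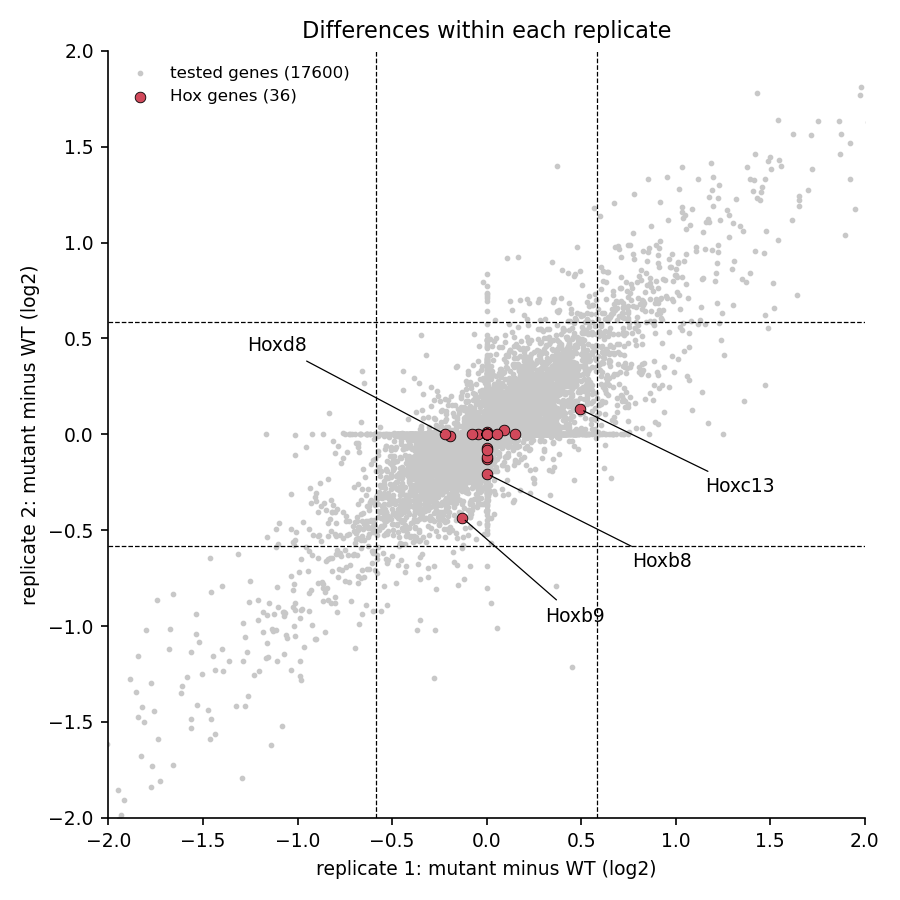
Mutant minus WT (log2) in replicate 1 (x axis) and replicate 2 (y axis) for the 36 Hox genes (red) and the 17600 tested genes (grey); dashed lines mark 1.5-fold and 59 tested genes lie outside the plotted range of 2. All Hox points lie inside the dashed lines and 21 lie at the origin.

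Hox proteins bind DNA with TALE homeodomain partners of the Meis, Pbx and Pknox families, and these were bright. All 8 of the listed genes with a row were above the floor on all 4 arrays, with a median of 8.12. Of these, 7 (87.5%) were brighter than any Hox gene, as were 54.6% of all named genes. Meis1 was read at 7.72 and 8.09 in mutant and 7.53 and 8.09 in WT. Pknox2 was read at 8.56 and 8.63 in mutant and 8.75 and 8.63 in WT. None of the 8 passed an unadjusted p of 0.05 and none was 1.5-fold apart in both replicates. The 13 neighbours and ParaHox relatives of the clusters, such as Evx, Cdx and Gsx genes, lay as low as the Hox genes, with a median of 5.24. En1, of the limb and midbrain, stood highest among them at 7.91 and 8.32 in mutant and 7.60 and 8.10 in WT, and 0 of 11 tested passed an unadjusted p of 0.05.

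Transcripts from inside the clusters were dim as well: the 6 noncoding genes with a row of their own had a median of 4.89. Of these, 0 were brighter than the brightest Hox gene, against 54.6% of all named genes. Hotair, an antisense RNA of the Hoxc cluster, was read at 4.79 and 5.33 in both groups, and Hoxaas3 at 4.78 and 5.53 in both. Mir615, within the Hoxc cluster, was read at 4.78 and 5.26 in both groups. Of the 6, 4 (66.7%) were equal in both replicates, against 47.4% of named genes in the Hox range of levels and 29.5% of all named genes. At an unadjusted p under 0.05 there were 0 of the 4 tested. The strand that each row reads was not analysed here, so signal from overlapping genes cannot be told apart.

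The genes that keep Hox clusters silent or open had bright rows in both groups. All 18 Polycomb genes with a row were brighter than any Hox gene, with a median of 8.53. So were all 10 trithorax and demethylase genes, with a median of 9.38, and 54.6% of all named genes. Phc3, a Polycomb subunit, was read at 9.98 and 10.02 in mutant and 9.58 and 9.64 in WT, a difference of 0.39 (SE 0.12). Kmt2a, the trithorax methyltransferase that maintains Hox expression, was read at 10.51 and 10.33 in mutant and 10.03 and 9.84 in WT, a difference of 0.49 (SE 0.15). Each was the only one of its list under an unadjusted limma p of 0.05 (0.0353 for Phc3 and 0.0368 for Kmt2a), 1 of 18 and 1 of 10 against the 4.03% of all tested genes, and neither passed the adjusted threshold. Both genes were higher in mutant in both replicates without reaching 1.5-fold.

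Retinoic acid and Gdf11 set Hox domains in the embryo, and their 14 listed genes had a median of 7.95. Of these, 11 (78.6%) were brighter than any Hox gene, as were 54.6% of all named genes. Crabp1, a retinoic acid binding protein, was lower in mutant, at 6.22 and 5.96 against 7.21 and 7.15 in WT, a difference of -1.08 (SE 0.15). Crabp2, its relative, was higher, at 7.89 and 8.08 against 7.27 and 7.47. Aldh1a2, which makes retinoic acid, was read at 5.97 and 6.81 in mutant and 4.99 and 6.11 in WT. These 3 were 1.5-fold apart in both replicates, Crabp1 lower in mutant and the other two higher, beside 1.17% of all tested genes lower and 1.49% higher. Rarb, a receptor and a known retinoic acid target, was 0.93 and 0.48 higher in mutant in replicates 1 and 2. For Aldh1a2 and Rarb mutant and WT values overlapped, and their unadjusted limma p-values were 0.202 and 0.203. Crabp1 and Crabp2 had unadjusted limma p-values of 0.00300 and 0.0202 and adjusted ones of 0.459 and 0.879, where 4.03% of all tested genes passed the unadjusted threshold and none of the 14 passed the adjusted test.

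The homeobox genes known for patterning the face and skull had brighter rows than the Hox genes in most cases. Of 21 with a row, all were above the floor, as were 79.4% of all named genes, and the median was 7.25. Of the 21, 15 (71.4%) were brighter than any Hox gene, as were 54.6% of all named genes. The other 6 lay in the range of the Hox genes. Msx2, of the skull vault and its sutures, was read at 10.09 and 10.08 in mutant and 10.25 and 10.39 in WT. Alx1, of the frontonasal skeleton, was read at 9.39 and 9.49 in mutant and 9.05 and 9.14 in WT. Prrx1, with a mean of 12.75, and Six2, with 11.39, are named after their values were seen, as the brightest of the list. None of the 21 passed an unadjusted p of 0.05. Lhx8 was the one gene of the 21 that was 1.5-fold higher in mutant in both replicates (by 1.35 and 0.81), beside 1.49% of all tested genes. Among 14 genes of limb and trunk skeletal patterning the median was 5.90, 6 (42.9%) were brighter than any Hox gene, and 0 passed an unadjusted p of 0.05. Tbx15 was the brightest of these at a mean of 11.31, and Shh, the limb polarity signal, the dimmest at a mean of 4.59; both are again named for their values.

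**Figure D4:**
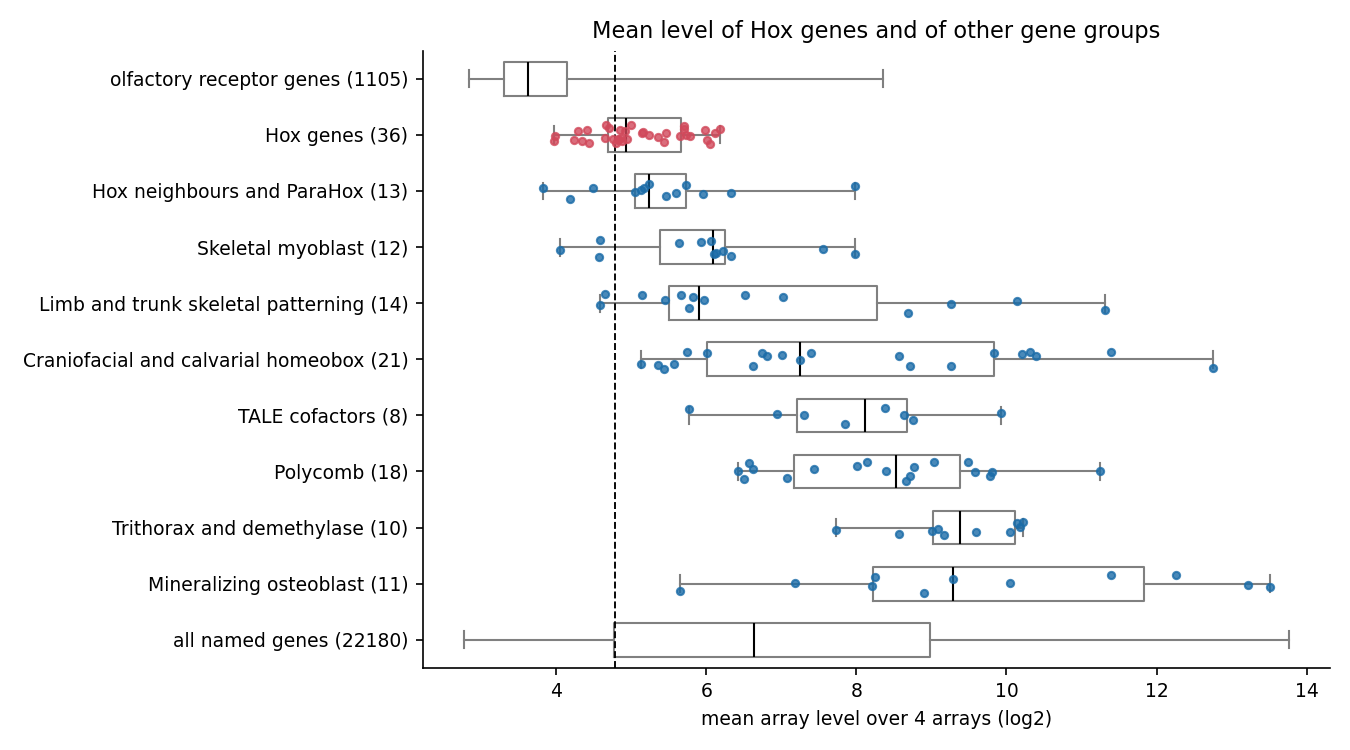
Mean array level over the 4 arrays (log2) by gene list, with the number of genes in brackets; boxes span the quartiles with the median as a line, whiskers the whole range, points are genes (not drawn for the largest groups) and the dashed line is the floor (4.78). The Hox genes, with a median of 4.93, lie between olfactory receptor genes and the face and skull homeobox genes, whose median is 7.25.

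Marker genes of other cells differed between the groups that the Hox genes were compared in. The mean level of 16 macrophage markers was 6.54 and 6.79 on the mutant arrays against 8.40 and 8.47 on the WT arrays, and 15 of 16 were 1.5-fold lower in mutant in both replicates, as were 1.17% of all tested genes. Adgre1, a defining macrophage marker, was read at 5.61 and 6.16 in mutant and 8.21 and 8.44 in WT. On all 4 arrays 15 of the 16 were above the floor, while Ptprc lay under it on the mutant arrays, at 4.77 and 4.60. Of 11 markers of mineralizing osteoblasts, 6 were 1.5-fold lower in both replicates, and the list mean was 9.35 and 9.58 against 10.06 and 10.24. The bone matrix gene Ibsp was read at 11.31 and 11.66 in mutant and 12.87 and 13.19 in WT. Of the 11, 7 were lower in mutant in both replicates, and 1, Sp7, was higher in both, by 0.29 and 0.08. Alpl, Col1a1 and Col1a2 were equal in replicate 2, and in replicate 1 mutant minus WT was -0.07, -0.02 and -0.04. Of 8 chondrocyte markers 3 were 1.5-fold lower and of 8 endothelial markers 3 were 1.5-fold higher in both replicates, beside 1.49% of all tested genes higher. Of 9 neural and glial markers 1 was 1.5-fold higher in both, the microtubule gene Map2 at 11.16 and 11.06 in mutant and 10.41 and 10.40 in WT, and 0 of 12 skeletal myoblast markers were 1.5-fold apart in both. Their part in the Hox values was not tested.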

How the data were processed

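Labelled cDNA from 200 ng of total RNA per culture was hybridised to Affymetrix arrays, per the labels' protocols. The authors' deposited values were used as they stand and taken as log2 levels; the submitters' processing notes name RMA and Partek, with no version, and the log base, genome build and origin of equal values are not stated. Rows were named through the platform annotation: 23521 rows had 1 symbol, 1814 several and 16010 none. The members, gene lists and tests were chosen with earlier results of these data known.

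Olfactory receptor rows set the floor, at the 90th percentile of their means, and a gene was tested with at least 2 of 4 arrays above it (17600 genes). The fit used R 4.3.3 and limma 3.58.1 (lmFit and eBayes, group as the only term, threshold 0.05); a difference is mutant minus WT. It was tested on simulated data. With 4 arrays, their number limits the precision. Values on each array are given for members above the floor on all 4 arrays, for the brightest and dimmest of each cluster and, from other lists, for up to 4 tested genes with the smallest p; other genes are named for their values or as defining markers. Alternatives changed the background rows, percentile, filter, normalization, row choice, variance model, replicate block, fold and arrays used. Promoters and microRNAs came from RefSeq tables; summaries used Python 3.11.15 with pandas 2.3.3. Protein sequences were not analysed here.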

Additional observations from a re-analysis of the deposited data

How the results depend on the processing

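With all alternatives tried, 0 Hox genes passed the adjusted or the unadjusted limma threshold, and 0 were 1.5-fold apart with the same sign in each replicate, or past the lower or the 2-fold alternative. The number of Hox genes above the floor was 28 and became 14 with all 4 arrays required, 17 with the floor at the 95th percentile, 24 with a floor on each array (an alternative chosen after seeing the data), 29 after quantile normalization, 35 with the floor at the 75th percentile, 36 with no filter, and 19 to 26 with 1 array left out. The median difference of the tested members was 0. It was -0.0393 after median centring of the arrays and -0.0313 after quantile normalization, with or without the replicate block. The median over all tested genes moved alike, to -0.0393 and -0.0308. For the tested members the median ran from -0.34 to 0.34 with 1 array left out, where unequal replicate numbers in the groups leave the offset in the difference. Over all tested genes that range was -0.15 to 0.15. Without 1 array Hoxb9 ran from -0.84 to 0.27, turning to 0.27 without WT replicate 2 and 0.12 without mutant replicate 1. Hoxc13 ran from -0.0634, without WT replicate 1, to 0.69. Hoxd3 ran from -0.41 to 0.21, turning to 0.12 without WT replicate 2 and 0.21 without mutant replicate 1. The number of members equal in both replicates fell from 21 to 0 after either rescaling, which moves the arrays against each other. Where the arrays were not rescaled, equal pairs also limited the count of genes 1.5-fold apart.

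Same-numbered samples deviated together (Pearson r of deviations from group means 0.92 across 17600 tested genes and 0.97 across the 36 Hox genes, which are not independent replicates), but the labels do not say what a number shares. Both r are in part set by equal values. For the 21 Hox genes and 25.3% of tested genes equal in both replicates, the deviations of mutant and WT are identical. With the replicate block 0 Hox genes passed, and Hoxc13 (SE 0.15) and Hoxb9 (SE 0.13) both had an adjusted limma p of 0.599. Over all tested genes the adjusted calls were 0, and 49 with an intensity trend or 443 with the block and quantile normalization together, with 0 Hox genes in both.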

Other observations

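Rows that carry a Hox symbol together with another symbol belong to no comparison above. There were 7, with means from 3.07 (Mir10a with Hoxb4) to 6.33 (Hoxa3 with 5730446D14Rik). Hoxa11, a gene of the forearm and lower leg, was present in 2 rows shared with its antisense transcript Hoxa11os. The brighter of these was read at 5.00 and 5.83 on the mutant arrays and 5.02 and 5.83 on the WT arrays, and the other at 4.36 and 5.41 in both groups. Hoxd4, in a row shared with Hoxd3, was read at 5.11 and 6.02 in both groups. The rows with Hoxa11 and Hoxd4 fall in the range of the rows named by 1 Hox symbol, and 0 of the 7 were 1.5-fold apart in either replicate. Hoxd3os1, an antisense transcript of the Hoxd cluster, was read at 5.45 and 5.38 in mutant and 5.45 and 5.45 in WT.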
